A study of Rattus norvegicus with 24 samples.

Results

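Lung miRNAs of Fischer-344 rats that inhaled hexanal at 1000 ppm were compared with those of rats that inhaled it at 600 ppm, slide by slide. The 12 arrays titled with these doses were taken from the 24 of the series, 6 per dose with 3 males and 3 females in each, and 1 array was run per rat. Another 6 arrays of rats in clean air are given as a reference level. These and the remaining arrays, of rats that inhaled hexanal at 1500 ppm, entered the probe filter, the scaling and an alternative fit over all 24 arrays, and no other test. The 1500 ppm rats are not described here. All rats were 7 to 8 weeks old, and both dose groups inhaled a hexanal aerosol for 4 h a day on 5 days a week for 5 weeks. Hexanal is an aldehyde found in indoor air. Total RNA of lung tissue was labelled with Cy3 and hybridised to Agilent rat miRNA arrays. The labels name the doses in ppm in one place and give the same numbers in mg per cubic metre in another, so the dose names are used here as names only. Whole lung RNA mixes all cell types, and fewer cells of a type and less RNA per cell cannot be told apart in it.

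An Agilent slide carries several arrays that are hybridised and scanned together, and the block compares rats only with rats of the same slide. Slide 1 held 3 males at 600 ppm (rats 6, 7 and 8) and 2 males at 1000 ppm (11 and 12). Slide 2 held 1 female at 600 ppm (26) and 1 male at 1000 ppm (13), so that dose and sex cannot be told apart on it. Slide 3 held 2 females at 600 ppm (27 and 28) and 3 females at 1000 ppm (31, 32 and 33). Arrays lay in order of rat number along the rows of each slide, though arrays of one dose were not all neighbours. The 1000 ppm rats thus followed the 600 ppm rats on slides 1 and 3, where this order and dose cannot be told apart. On slide 2 the order was the reverse. On the array of rat 26, 2 spots had a local background far above the spot itself, with a highest value of 58854.5 scanner units.

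Levels are log2 of the background-corrected intensity after each array was scaled to a common 75th percentile, and a difference is 1000 ppm minus 600 ppm on that scale, fitted with slide as a block. Of 719 miRNAs on the array, 283 had at least 1 probe above background on 6 or more of the 24 arrays and were tested, and 214 of these were above background on all 12 arrays. A miRNA near the floor, at a log2 level of 3.50, can show only part of a difference in RNA. Before scaling, the 75th percentile was 875 ± 144 scanner units at 600 ppm and 967 ± 193 at 1000 ppm (SD, n = 6), and the within-slide difference of 116 had an exact two-sided permutation p of 0.195 (adjusted over 2 tests 0.22). The number of miRNAs above background was 259 ± 21.3 and 268 ± 21.2 per array, with a within-slide difference of 13.4 (exact permutation p = 0.22, adjusted 0.22). No spot was saturated. Depth has no direct counterpart on an array, and the number of rats limits the precision.

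A miRNA is a short RNA that guides a repressor complex to messenger RNAs, and pairing runs mainly through its seed, bases 2 to 8. miRNAs with the same seed can share targets, and miRNAs cut from one transcript tend to be made together. The miR-34 and miR-449 families share a seed and are known from airway epithelium, where miR-449 and miR-34b/c are abundant in cells with motile cilia and are needed for the cilia to form. miR-34a, of the same family, is also a target of p53. The miR-30 family is abundant in lung and kidney epithelium and in many other cells.

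No miRNA passed the adjusted threshold, so these 2 families are described from unadjusted p values only. With the scaling used here, 7 miRNAs (2.47% of 283) were higher at 1000 ppm with an unadjusted p below 0.05, and 6 of them were miR-34 or miR-449 members. Another 16 (5.65%) were lower, of which 7 were named miR-30, a count that fell under the other scalings. The mature sequences below are those of RefSeq for the assembly GRCr8, read 5′ to 3′, with the seed in capitals. A sequence was found by name for 249 of the 283 miRNAs tested. The first set is the family with the seed GGCAGUG, shown because its members differ only outside the seed.
miR-34a-5p: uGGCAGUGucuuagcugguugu
miR-34b-5p: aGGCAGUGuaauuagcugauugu
miR-34c-5p: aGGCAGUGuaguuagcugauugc
miR-449a-5p: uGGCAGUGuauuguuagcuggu
miR-449c-5p: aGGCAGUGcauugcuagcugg
The other arms of the miR-34b and miR-34c hairpins are shown because they were measured with separate probes and carry a seed of their own.
miR-34b-3p: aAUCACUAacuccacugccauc
miR-34c-3p: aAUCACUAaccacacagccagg

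The miR-30 members with a matched sequence are shown next, since 7 of the 11 miRNAs of that name had an unadjusted p below 0.05 with the scaling used here. Among those shown, the 5p arms carry the seed GUAAACA, the 3p arms of miR-30c-1 and miR-30c-2 share UGGGAGA, and miR-30a-3p has another seed. No seed is given for members without a matched sequence.
miR-30a-5p: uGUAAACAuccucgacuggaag
miR-30c-5p: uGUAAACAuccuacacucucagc
miR-30e-5p: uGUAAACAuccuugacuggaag
miR-30a-3p: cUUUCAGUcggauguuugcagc
miR-30c-2-3p: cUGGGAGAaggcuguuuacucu
miR-30c-1-3p: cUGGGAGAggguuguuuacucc

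The last set holds miRNAs outside these families that were among those of smallest p, as 2 neighbouring pairs.
miR-181c-5p: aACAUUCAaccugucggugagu
miR-181d-5p: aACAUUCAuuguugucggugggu
miR-3585-5p: uUCACAAGaaggugucuuucau
miR-547-3p: aUUGGUACuucuuuaagugaga

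Rats at 1000 ppm and at 600 ppm differed little in their lung miRNAs, and no miRNA passed the threshold. With limma and Benjamini-Hochberg adjustment over all 283 miRNAs, 0 had an adjusted p below 0.05 (0%), and the smallest adjusted p was 0.548, shared by 21 miRNAs. At an unadjusted p below 0.05 there were 23 miRNAs, where 14.15 are expected by chance. Of these, 7 were higher at 1000 ppm (2.47% of those tested) and 16 were lower (5.65%). An exact permutation test within slides, which ran through 200 relabellings, gave 18 miRNAs with an unadjusted p below 0.05 and 0 after adjustment. Its smallest p was 0.01, for miR-652-3p, and the smallest it can give is 0.005.

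The differences ran from -0.45 to 1.08 with a median standard error of 0.06. The 95% confidence interval of the fold lay within 1.5-fold in either direction for 259 miRNAs (91.5%) and within 2-fold for 276 (97.5%). Both counts include dim miRNAs, whose intervals the floor can narrow, and brighter miRNAs were not counted separately. For miR-351-3p, which lay near the floor, the standard error was 0.05 here and 0.21 with a lower floor. A narrow interval of a dim miRNA therefore does not show that its RNA was alike at both doses. The fitted difference itself exceeded 1.5-fold for miR-1-3p (1.08 ± 0.89, SE) and miR-133b-3p (0.61 ± 0.47), both of which had a spread between rats that was as large. The median difference over all miRNAs was -0.04, 71 of 283 (25.1%) were above 0 and 212 (74.9%) were below 0. The first share depends on the scaling, since it was 43.1% when the percentile was taken over all probes, 46.6% after quantile normalization, 51.2% with the total gene signal of the scanner software and 87.6% in the deposited series table, which was not scaled between arrays. Groups of miRNAs are therefore set against the overall median in what follows. With normexp, another background correction, the median moved to -0.46 and 15 of 283 (5.30%) were above 0. Once spots of very high local background were left out, these were -0.10 and 28 (9.89%).

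**Figure D1:**
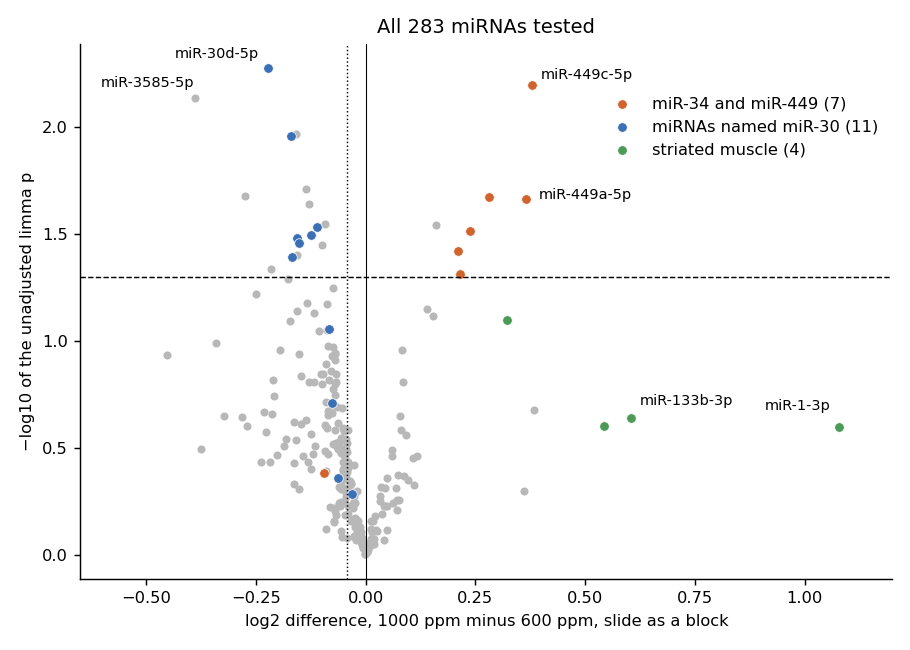
Log2 difference of 1000 ppm minus 600 ppm within slides (x axis) against −log10 of the unadjusted limma p (y axis), with 1 point for each of 283 miRNAs, a dashed line at an unadjusted p of 0.05 and a dotted line at the overall median of -0.04. The coloured points are the miR-34 and miR-449 (7), miR-30 (11) and striated muscle (4) miRNAs, and the miR-34 and miR-449 points lie to the right above the dashed line except for miR-34a-5p, while the miR-30 points lie to the left of 0 (8 of 11 are above 0 in the unscaled series table).

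Of the 7 miRNAs that were higher at 1000 ppm with an unadjusted p below 0.05, 6 belonged to the miR-34 and miR-449 families. With the scaling used here, 6 of the 7 measured members were higher at 1000 ppm on each of the 3 slides, and all 6 had an unadjusted p below 0.05, while the exception, miR-34a-5p, had a difference of -0.09 ± 0.11. Over all 283 miRNAs, 18 (6.36%) were higher on each of the 3 slides. The 6 come from a locus on chromosome 2 and another on chromosome 8, so they are not 6 separate results. The list was chosen with earlier results of these data known, and its count is a description. The list median was 0.24, which is 0.28 above the overall median, and 0 of the 7 passed the adjusted threshold. Relative to the overall median, the list lay between 0.27 and 0.30 higher with the all-probe percentile, quantile normalization, the total gene signal and the series table. With normexp it lay 0.39 higher, although its own median was -0.07 with 2 members above 0, and without the spots of high local background it lay 0.17 higher, with a median of 0.07 and 5 members above 0.

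miR-449c-5p had the smallest p among the higher miRNAs. On slide 1 its level was 3.71, 3.76 and 3.80 at 600 ppm and 3.58 and 4.17 at 1000 ppm. On slide 2 it was 3.50 at 600 ppm and 3.91 at 1000 ppm, and on slide 3 it was 3.70 and 3.56 against 4.25, 4.24 and 4.26. The doses overlapped on slide 1, through rat 11, and were apart on slide 3. The 3 females at 600 ppm were not above background, so this miRNA was measured on 3 of 6 arrays at 600 ppm and on 6 of 6 at 1000 ppm. The fitted difference was 0.38 ± 0.11 with a limma adjusted p of 0.548, and no fold is given because 3 of the 6 rats at 600 ppm were not well above background. Without rat 11 the difference was 0.52 ± 0.05 and the limma adjusted p 0.00113, which made miR-449c-5p the only miRNA to pass in any of the fits that left out 1 array. With normexp it was -0.53, which is below that setting's overall median of -0.46, and -0.03 without the spots of high local background, above the median of -0.10.

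miR-449a-5p lies 1531 bases from miR-449c-5p on chromosome 2 (chr2:46403925-46403946 and chr2:46402394-46402414, both on the plus strand). Its level was 7.46, 7.55 and 7.45 at 600 ppm and 7.37 and 7.76 at 1000 ppm on slide 1, 6.97 and 7.06 on slide 2, and 7.26 and 6.91 against 7.88, 7.70 and 7.97 on slide 3. As for miR-449c-5p, the doses overlapped among the males of slide 1 and stood apart among the females of slide 3. The fitted difference was 0.36 ± 0.13, a fold of 1.29 (95% interval 1.05 to 1.58, limma adjusted p = 0.548). In clean air the level was 6.76 ± 0.57 in the 3 males of slide 1 and 6.87 ± 0.44 in the 3 females of slide 2 (SD).

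The 4 products of the miR-34b and miR-34c hairpins, which lie within 556 bases of each other on the minus strand of chromosome 8, differed by similar amounts. For miR-34c-3p the levels were 5.39, 4.92 and 4.79 against 5.10 and 5.33 on slide 1, 4.87 against 5.24 on slide 2, and 5.49 and 5.23 against 5.75, 5.61 and 5.73 on slide 3. The doses overlapped on slide 1 and not on slide 3, and the difference was 0.28 ± 0.10 (fold 1.22, 95% interval 1.04 to 1.43). Its 5p arm, miR-34c-5p, spanned 9.05 to 9.84 (median 9.38) in rats at 600 ppm and 9.24 to 10.15 (median 9.71) in rats at 1000 ppm, a difference of 0.21 ± 0.10. For miR-34b-5p the range was 10.05 to 10.74 (median 10.32) against 10.21 to 11.07 (median 10.72), and for miR-34b-3p it was 6.18 to 6.79 (median 6.43) against 6.38 to 7.01 (median 6.74). The ranges of the dose groups overlapped for all 4. The differences of miR-34b-5p and miR-34b-3p were 0.24 ± 0.09 and 0.21 ± 0.09, and the limma adjusted p was 0.548 for each of these except miR-34c-5p, with 0.601.

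miR-34a-5p, which comes from its own gene on chromosome 5, did not go with the rest. Its level at 600 ppm ran from 10.15 to 11.06 with a median of 10.80, and at 1000 ppm from 10.32 to 10.81 with a median of 10.74. It was higher at 1000 ppm on slide 1 (0.15) and lower on slides 2 (-0.29) and 3 (-0.26). The 1000 ppm rats lay inside the range of the 600 ppm rats. In the 3 control males of slide 1 the level of miR-34b-5p was 10.12 ± 0.49 and that of miR-34c-5p was 9.09 ± 0.47, and in the 3 control females of slide 2 they were 10.22 ± 0.45 and 9.32 ± 0.45 (SD). The spread between control rats was larger than the difference between the doses for both.

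**Figure D2:**
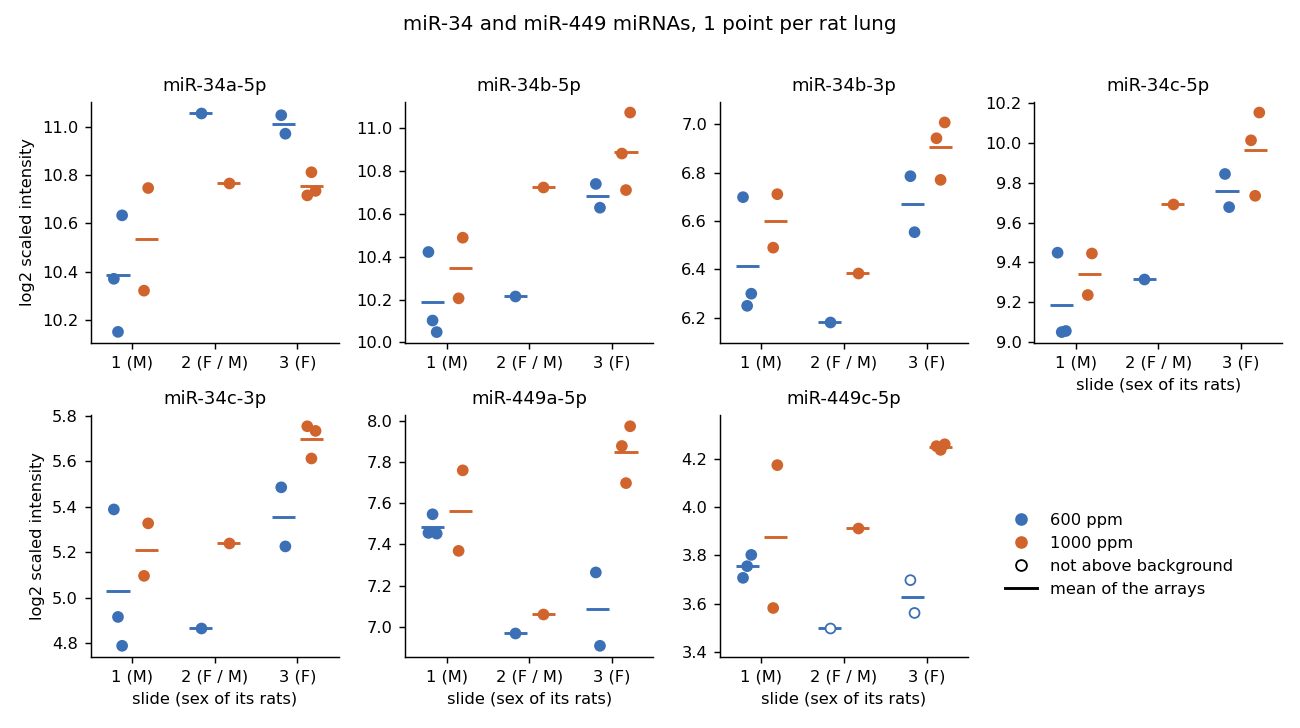
Log2 scaled intensity (y axis) of the 7 miR-34 and miR-449 miRNAs in each of the 12 rats, by slide (x axis, with the sex of its rats), with 600 ppm in blue, 1000 ppm in orange, a line at each mean and hollow points where the miRNA was not above background. On slide 3 every 1000 ppm rat lies above the 600 ppm rats for miR-449a-5p and miR-449c-5p, while on slide 1 the doses overlap for both, and miR-34a-5p is lower at 1000 ppm on slides 2 and 3.

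The miR-30 miRNAs were all lower at 1000 ppm with the scaling used here, by small amounts, while 8 of 11 were above 0 in the unscaled series table. The group was set by name after its values were seen, so its count is a description. Of the 11 members, 7 had an unadjusted p below 0.05, against 5.65% of all miRNAs in that direction. On each of the 3 slides 10 were lower, with miR-30c-1-3p (-0.06 ± 0.08) as the exception, where 80 of all 283 miRNAs (28.3%) were. The median was -0.13, which is 0.08 below the overall median, and 0 of the 11 passed the adjusted threshold. Relative to the overall median it lay 0.08 to 0.09 lower with the all-probe percentile, quantile normalization and the total gene signal. In the series table the group median was 0.05, which is 0.08 below that table's own median. With normexp the group was 0.22 above the overall median, and 0.02 below it without the spots of high local background. The count of 7 fell under each of these settings. With the all-probe percentile and the total gene signal, miR-30d-5p and miR-30c-2-3p stayed below an unadjusted p of 0.05. With quantile normalization and normexp, miR-30d-5p and miR-30a-3p did. Without the spots of high local background these were miR-30d-5p, miR-30c-2-3p, miR-30a-3p and miR-30b-5p. In the series table the smallest limma p was 0.13, for miR-30c-1-3p.

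miR-30d-5p had the smallest p of all miRNAs. Its level was 10.83, 10.78 and 11.14 at 600 ppm against 10.79 and 10.70 at 1000 ppm on slide 1, 10.98 against 10.66 on slide 2, and 10.87 and 10.95 against 10.63, 10.68 and 10.71 on slide 3. On slide 3 every 1000 ppm rat was below both 600 ppm rats, and on slide 1 rat 11 at 1000 ppm lay just above rat 7 at 600 ppm. The difference was -0.22 ± 0.06, a fold of 0.857 with a 95% interval from 0.777 to 0.944 (limma adjusted p = 0.548). In clean air it was 10.72 ± 0.14 in the 3 males of slide 1 and 10.81 ± 0.05 in the 3 females of slide 2 (SD), and slide 3 held no control. Without regard to slide, the means were 10.76 ± 0.10 in clean air, 10.93 ± 0.13 at 600 ppm and 10.70 ± 0.05 at 1000 ppm (SD, n = 6).

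miR-30a-5p was 1 of 3 miRNAs that were lower without overlap on both slide 1 and slide 3, together with miR-183-5p and miR-326-3p (1.06% of all tested), while miR-191a-5p and miR-500-3p were higher without overlap on both (0.707%). On slide 1 miR-30a-5p was 12.42, 12.45 and 12.46 against 12.36 and 12.36, and on slide 3 it was 12.59 and 12.56 against 12.33, 12.56 and 12.51. The gap between the doses on slide 3 was under the last digit given here for rats 28 and 32, and the difference of -0.11 ± 0.04 is a fold of 0.926. miR-30c-2-3p lies 19789 bases downstream on the plus strand of chromosome 9 and differed by -0.17 ± 0.05, with a range of 6.07 to 6.36 at 600 ppm and 5.95 to 6.16 at 1000 ppm. The rat at 6.07 was male 6, which stood apart from the other 5 at 600 ppm. The remaining members with an unadjusted p below 0.05 were miR-30b-3p (-0.16 ± 0.06), miR-30b-5p (-0.15 ± 0.06), miR-30a-3p (-0.13 ± 0.05) and miR-30d-3p (-0.17 ± 0.07).

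Among the other lower miRNAs of small p, miR-181c-5p and miR-181d-5p lie 170 bases apart on chromosome 19 and have the seed ACAUUCA. The miR-181 family is known for setting the response of lymphocytes to their receptors. miR-181c-5p spanned 7.29 to 7.62 (median 7.40) in rats at 600 ppm and 7.19 to 7.43 (median 7.23) in rats at 1000 ppm, a difference of -0.16 ± 0.05. miR-181d-5p ran from 6.13 to 6.42 (median 6.25) and from 6.00 to 6.31 (median 6.13), a difference of -0.13 ± 0.05. The ranges of the dose groups overlapped in both. The remaining members of that seed were miR-181a-5p (-0.10 ± 0.06) and miR-181b-5p (-0.04 ± 0.07). In the series table the signs of miR-181c-5p and miR-181d-5p turned, to 0.0049 and 0.034, where the median of all miRNAs was 0.13.

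miR-3585-5p and miR-547-3p come from hairpins 5319 bases apart on the minus strand of the X chromosome. miR-3585-5p was 4.44, 4.56 and 4.00 at 600 ppm against 4.07 and 3.92 at 1000 ppm on slide 1, 4.30 against 3.50 on slide 2, and 4.13 and 4.06 against 4.05, 3.72 and 3.70 on slide 3. Its level of 3.50 in male 13 was the floor. The difference of -0.39 ± 0.12 is a fold of 0.763 (95% interval 0.638 to 0.914, limma adjusted p = 0.548), and the miRNA could be told from background in 5 of 6 rats at 600 ppm and in 4 of 6 at 1000 ppm. miR-547-3p spanned 3.95 to 4.44 (median 4.12) in rats at 600 ppm and 3.64 to 4.04 (median 3.85) in rats at 1000 ppm, with a difference of -0.27 ± 0.10 and 5 of 6 arrays above background at each dose. The dose groups of both overlapped, and both lay near the floor.

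The 19 miRNAs with an unadjusted p below 0.05 that had a position in GRCr8 formed 9 pairs on one strand within 50 kb, and the members of all 9 pairs differed in the same direction. The pairs are those named above on chromosomes 2, 8, 9, 19 and X, with 1 locus on each. Those on chromosome 8 set the arms of the miR-34b and miR-34c hairpins against each other. Those on chromosome 9 are both arms of miR-30a with miR-30c-2-3p. The share among all tested neighbours was not computed, so the count of pairs is a description. miR-652-3p, an X-linked miRNA of an intron, had a narrow spread, with 9.16 to 9.37 at 600 ppm and 9.11 to 9.25 at 1000 ppm and a difference of -0.09 ± 0.04. miR-664-3p, which is cut from a snoRNA hairpin, differed by -0.14 ± 0.05.

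miR-183-5p is 1 of 3 miRNAs of a cluster that is known from sensory epithelium. On slide 1 it was 4.76, 4.97 and 5.26 at 600 ppm against 4.55 and 4.69, and on slide 3 it was 5.46 and 5.57 against 5.38, 5.32 and 5.25. The doses did not overlap on these slides, while on slide 2 the 1000 ppm rat was higher (5.56 against 5.43). The difference was -0.22 ± 0.10 (limma adjusted p = 0.594). Its cluster neighbours differed by -0.18 ± 0.08 (miR-96-5p) and -0.15 ± 0.09 (miR-182). miR-191a-5p, a broadly expressed miRNA, was 4.92, 4.95 and 4.74 against 5.03 and 5.06 on slide 1 and 4.30 and 4.38 against 4.40, 4.46 and 4.72 on slide 3, with a difference of 0.16 ± 0.06. It was -0.54 with normexp, below that setting's median, and -0.07 without the spots of high local background.

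Grouped by seed, 40 of the miRNAs with a sequence fell into 9 seeds of at least 3 members. The seed GGCAGUG of miR-34 and miR-449 had a median difference of 0.24, with 4 members above 0 and 1 below. The others had medians from -0.11 for the miR-181 seed to 0.003 for the miR-29 seed AGCACCA. The let-7 seed GAGGUAG, of miRNAs that mark differentiated cells, had 8 members with a median of -0.06 (let-7i-5p -0.08 ± 0.05), with none below an unadjusted p of 0.05. The seed AAAGUGC of the miR-17 family, known from dividing cells, had 5 members with a median of -0.07. Both are near the overall median of -0.04.

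Lists of miRNAs that mark cell types or processes gave few differences from that median. Since 74.9% of all miRNAs were below 0 and that share moved with the scaling, each list is given by its place around the overall median. Of 11 epithelial miRNAs (the miR-200 family, miR-203a, miR-205, miR-375 and the miR-183 cluster among them), 5 lay above the overall median and 6 below, and 1 had an unadjusted p below 0.05 (miR-183-5p). Of 5 endothelial miRNAs 2 lay above it and 3 below, and miR-126a-3p, the best known of them, differed by -0.06 ± 0.05 and miR-126a-5p, from the same hairpin, by -0.06 ± 0.05. All 10 smooth muscle and fibroblast miRNAs lay above the overall median, with a list median of 0.004 and miR-214-3p the highest (0.11 ± 0.11).

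Of 8 injury and stress miRNAs 4 lay above the overall median and 4 below. Among these miR-21-5p, which is induced in many injured tissues, differed by -0.03 ± 0.08, and miR-210-3p, which responds to low oxygen, by -0.09 ± 0.07. miR-31a-5p differed by -0.34 ± 0.19, with 0.09 on slide 1, -0.82 on slide 2 and -0.57 on slide 3. Of the 11 miRNAs in the miR-17-92 list 3 lay above the overall median and 8 below, with a median of -0.07 and miR-20b-5p at -0.09 ± 0.05, and in the series table all 11 were above 0. Of the 9 tested miRNAs in the imprinted Dlk1-Dio3 list of 45, 1 lay above the overall median and 8 below, with a median of -0.06. With the total gene signal 5 of these 9 were above 0 and the list lay 0.07 above the overall median. No member of any list passed the adjusted threshold.

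Of 7 leukocyte miRNAs 6 lay above the overall median and 1 below, with a list median of 0.06, and 0 had an unadjusted p below 0.05. miR-142-5p, of blood cells, spanned 8.33 to 8.76 (median 8.62) in rats at 600 ppm and 8.46 to 8.99 (median 8.81) in rats at 1000 ppm, a difference of 0.14 ± 0.07. The 3 red blood cell miRNAs tested differed by 0.02 to 0.08, and with normexp 1 of the 3 was above 0, while miR-144-3p differed by 0.08 ± 0.12. miRNAs of brain, liver and pancreas were tested for 4 of 10, with 1 above the overall median and 3 below. Of these, miR-122-5p, the liver miRNA, spanned 3.77 to 5.83 in rats at 600 ppm and 3.55 to 4.80 in rats at 1000 ppm, a difference of -0.45 ± 0.26. The brain miRNAs miR-124-3p and miR-9a-5p and the pancreas miRNAs miR-216a-5p and miR-217-5p did not reach the filter on dim probes, while all 11 epithelial and all 5 endothelial miRNAs were above background on all 12 arrays.

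**Figure D3:**
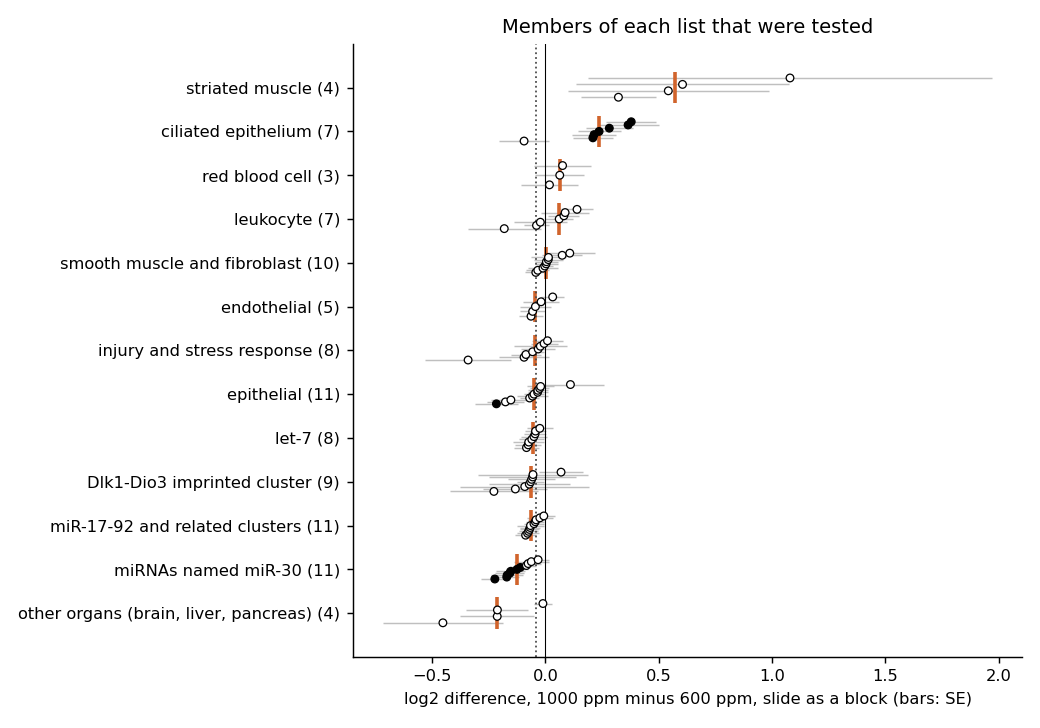
Log2 difference of 1000 ppm minus 600 ppm within slides (x axis) for each measured miRNA of the lists, with bars of 1 SE, filled points for an unadjusted p below 0.05, an orange line at each list's median and a dotted line at the overall median of -0.04. The ciliated epithelium list (median 0.24) and the striated muscle list (median 0.57, no filled point) lie to the right of the other lists, and the miR-30 group (median -0.13) lies to the left.

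Striated muscle miRNAs had the largest differences and the largest spread. Of the 8 in the list, 4 were tested, and all 4 were higher at 1000 ppm on each of the 3 slides, but none had an unadjusted p below 0.05. miR-1-3p, the main miRNA of heart and skeletal muscle, was 6.97, 4.71 and 5.62 against 5.31 and 6.26 on slide 1, 3.51 against 7.57 on slide 2, and 4.29 and 6.82 against 7.15, 3.80 and 8.40 on slide 3. Single rats of the same dose and slide thus differed by more than 4 on the log2 scale. The difference of 1.08 ± 0.89 is a fold of 2.11 with a 95% interval from 0.535 to 8.34. miR-133b-3p, made in the same cells, spanned 7.00 to 8.63 (median 7.67) in rats at 600 ppm and 7.30 to 9.83 (median 8.48) in rats at 1000 ppm (0.61 ± 0.47), and miR-133a-3p differed by 0.54 ± 0.44.

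The order of the rats was alike for these 3 miRNAs: rats 33 and 13 were highest and rats 7, 26 and 32 were among the lowest. miR-499-5p, which is made from a myosin gene, spanned 4.26 to 5.01 in rats at 600 ppm and 4.58 to 5.38 in rats at 1000 ppm (0.32 ± 0.17). miR-206-3p, miR-208a-3p and miR-208b-3p, which mark skeletal and heart muscle more strictly, were on the array and did not reach the filter. The summed scaled intensity of the list spanned 191 to 602 in rats at 600 ppm and 213 to 1373 in rats at 1000 ppm. The list median was 0.03 on slide 1, 1.86 on slide 2, which held 1 rat of each dose, and 0.58 on slide 3. Relative to the overall median the list lay 0.62 higher, and 0.22 higher with normexp, where its own median was -0.24 and 1 member was above 0. Without the spots of high local background it lay 0.35 higher. The part of muscle RNA in the differences of other miRNAs was not tested.

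**Figure D4:**
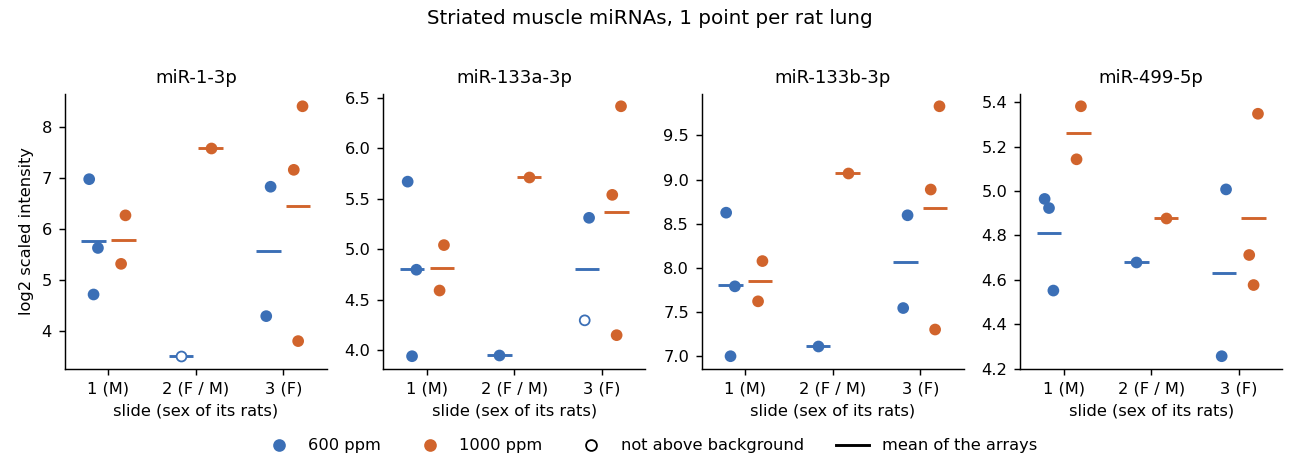
Log2 scaled intensity (y axis) of miR-1-3p, miR-133a-3p, miR-133b-3p and miR-499-5p in each of the 12 rats, by slide (x axis, with the sex of its rats), with 600 ppm in blue, 1000 ppm in orange and a line at each mean. miR-1-3p of single rats spans 3.51 to 8.40, and the doses overlap on slides 1 and 3.

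The last question was whether the difference between the doses was itself different between the males of slide 1 and the females of slide 3, where sex and slide cannot be told apart. In limma with 6 residual degrees of freedom, 0 of 283 miRNAs passed the adjusted threshold (0%), the smallest adjusted p was 0.985, and 10 had an unadjusted p below 0.05 (3.53%). The 3 of smallest p were miR-449a-5p, miR-33-3p and miR-483-5p. For miR-449a-5p the doses differed by 0.08 on slide 1 and by 0.76 on slide 3, which gives -0.68 ± 0.21 for slide 1 minus slide 3 (limma adjusted p = 0.985). For miR-449c-5p the values were 0.12 and 0.62 (-0.50 ± 0.21), with both 600 ppm rats of slide 3 below background. Without male 12 this contrast was -0.79 ± 0.11 for miR-449c-5p, with a limma adjusted p of 0.0470, the only miRNA to pass among the fits that left out 1 array. Rat 11 was then the only rat at 1000 ppm on slide 1, and the fit assumed that it varied like the other rats. The miR-34b and miR-34c products differed by 0.16 to 0.18 on slide 1 and by 0.20 to 0.34 on slide 3.

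miR-33-3p, from an intron of a gene of cholesterol control, differed by 0.12 on slide 1 and -0.17 on slide 3 (0.29 ± 0.11), and miR-483-5p, from an intron of Igf2, by 0.44 and -0.02 (0.46 ± 0.19), both with a limma adjusted p of 0.985. The standard error of this contrast was 0.15 at the median, so that it was measured less well than the difference between the doses. Over the 283 miRNAs, Pearson's r of the differences on slide 1 and slide 3 was 0.277 and Spearman's rho 0.057, as a description across miRNAs that share arrays, and 160 had the same sign on both.

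**Figure D5:**
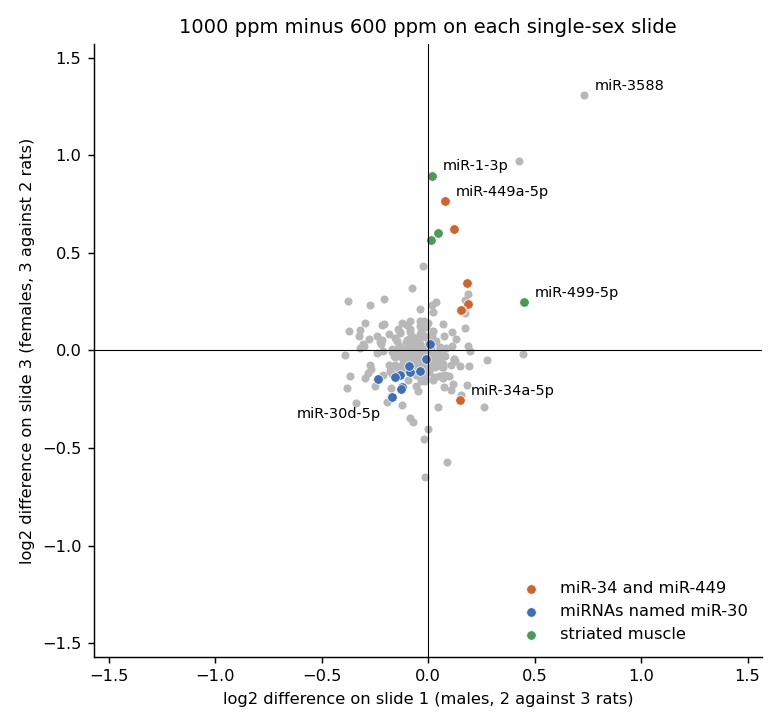
Log2 difference of 1000 ppm minus 600 ppm on slide 1 (males, x axis) against that on slide 3 (females, y axis), with 1 point for each of 283 miRNAs. The miR-34b and miR-34c products lie in the upper right on both slides, miR-449a-5p is at 0.08 on slide 1 and 0.76 on slide 3, and the bulk of the points lies near 0 on both axes.

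Some miRNAs near the edge of detection were picked by rule for a gap in detection, so the gaps themselves are set by that choice. The rule asked for at least 4 of 6 arrays above background at one dose and at most 1 of 6 at the other. No others of the 719 miRNAs on the array met it. All of them were above background on more arrays at 1000 ppm, where the mean number of miRNAs above background was also higher (268 against 259). miR-342-5p could be told from background in 1 of 6 rats at 600 ppm and in 5 of 6 at 1000 ppm, and its level ran from 3.50 to 3.76 and from 3.50 to 3.96 (0.04 ± 0.06). For miR-144-5p and miR-351-3p these numbers were 1 of 6 and 4 of 6, with differences of 0.06 ± 0.11 and -0.01 ± 0.05, and for miR-455-5p 1 of 6 and 4 of 6, with -0.05 ± 0.05. The direction of these small differences was not settled at this signal. miR-3588, further from background, had the widest disagreement between slides, with 0.73 on slide 1, -2.80 on slide 2 and 1.31 on slide 3 (0.36 ± 0.52).

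Some of the larger lower values that did not reach an unadjusted p below 0.05 were widest on slide 2, where 1 rat stood for each dose. miR-1224 spanned 9.54 to 11.38 (median 9.78) in rats at 600 ppm and 9.20 to 10.13 (median 9.64) in rats at 1000 ppm, and female 26 was the rat at 11.38. Its difference was -0.32 ± 0.25, with 0.11 on slide 1, -1.64 on slide 2 and -0.20 on slide 3. miR-125a-3p differed by -0.38 ± 0.36 (-0.38, -1.88 and 0.26 on slides 1 to 3), miR-347 by -0.28 ± 0.22 (-0.32, -0.90 and 0.01) and miR-370-3p, of the Dlk1-Dio3 cluster, by -0.23 ± 0.19 (-0.14, -1.24 and 0.11). The doses of these 4 miRNAs were furthest apart on slide 2 in each case.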

How the data were processed

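The authors deposited 1 Agilent Feature Extraction 11.5.1.1 file per array. Per the file headers, the processed intensity is Cy3 brightness corrected for background, with no normalization between arrays, and the build is rn4. The deposited series-wide values of intensity, used as an alternative, had 58.7% of values set to 1, and the 7125 above 1 equalled the total gene signal within a tolerance of 1e-06. Control spots and outlier-flagged spots were left out. Intensities were scaled to the 75th percentile of the 394 probes above background on all 24 arrays, floored at 11.3 (8.59% of kept spots) and converted to log2. Spots were averaged to probes and 555 kept probes to 283 miRNAs.

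In limma 3.58.1, lmFit and eBayes fitted dose with slide as a fixed block (8 residual degrees of freedom), two-sided, with Benjamini-Hochberg adjustment and a threshold of 0.05. Replicates were separate rats. Fits were tested on simulated data. R was version 4.3.3, data.table version 1.17.8 and matplotlib version 3.10.9.

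miRNAs were named by a rule: the smallest p, the largest difference in each direction, a detection gap, list members of smallest p, and the smallest p in the contrast of slide 1 with slide 3. Neighbours, miRNAs with the doses apart on slides 1 and 3, and others beside them were named outside this rule, after their values were seen. The members and lists were chosen with earlier results of these data known. The procedure of the authors beyond the scanner software is not given in the sources used here.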

Additional observations from a re-analysis of the deposited data

Results flagged for a closer look

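In 5 of 72 tests of a dose group of 6 rats, 1 rat stood apart from the other 5, with a gap to its nearest neighbour that was a larger share of the group's range than Dixon's critical value allows, where chance gives about 3.6. At 600 ppm, male 6 had the lowest miR-30c-2-3p level, 6.07 against 6.30 ± 0.04 in the others (SD, gap ratio 0.655). Female 26 had the highest level of 3 miRNAs: miR-1224 at 11.38 against 9.75 ± 0.21 (0.717), miR-483-5p at 6.63 against 5.43 ± 0.18 (0.669) and miR-351-3p at 3.78 against 3.52 ± 0.03 (0.782). These groups pool the slides, and female 26 was the only 600 ppm rat on slide 2, so rat and slide cannot be told apart. Controls were also higher on slide 2 than on slide 1 for miR-1224 (10.79 ± 0.39 against 9.78 ± 0.28). For miR-483-5p they were 6.28 ± 0.16 against 5.81 ± 0.53, and for miR-351-3p 3.65 ± 0.09 against 3.50 (SD, n = 3). The array of female 26 also had 2 spots of very high local background, as did that of control male 3. At 1000 ppm, female 31 had the highest miR-455-5p level, 3.61 against 3.51 ± 0.01 (0.725), at the edge of detection.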

How the results depend on the processing

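Under the alternatives tried, 0 miRNAs passed the adjusted threshold, except in the fits that left out 1 array, which gave 0 to 1 (miR-449c-5p without 1000 ppm male 11). The contrast of slide 1 with slide 3 also gave 0 to 1 (without 1000 ppm male 12). Apart from the fits without 1 array, the smallest adjusted p between the doses ran from 0.0824, in slide 3 alone, to 0.952. The 23 miRNAs with an unadjusted p below 0.05 became 29 without 600 ppm male 6, 15 without female 31, 14 without 600 ppm female 26 or male 13, and 13 without male 12. They became 14 with the all-probe percentile, with slide and sex, and with slides 1 and 3 only, 15 with quantile normalization, 11 with the total gene signal, 10 with the series table, 8 without the slide block, 5 in slide 1, 3 with normexp and 13 without its spots of high local background, an alternative chosen after seeing the data. No paired analysis was possible because the doses share no replicate numbers.

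Signs turned as follows, and the cause was not tested. With normexp, whose median over all miRNAs was -0.46, miR-449c-5p was -0.53, miR-34c-3p -0.40, miR-449a-5p -0.042, miR-191a-5p -0.54, miR-142-5p -0.028, miR-499-5p -0.43, miR-214-3p -0.21, miR-342-5p -0.62, miR-3588 -0.15, miR-144-3p -0.18, miR-144-5p -0.63 and the slide contrast of miR-33-3p -0.13. Without the spots of high local background (median -0.10), miR-449c-5p was -0.033, miR-191a-5p -0.071, miR-342-5p -0.13, miR-144-5p -0.14 and the contrast of miR-33-3p -0.13. In the series table, whose median was 0.13, miR-181c-5p was 0.0049, miR-664-3p 0.024, miR-181d-5p 0.034, miR-652-3p 0.055, miR-20b-5p 0.075, let-7i-5p 0.080, miR-126a-5p 0.098, miR-455-5p 0.38 and miR-351-3p 0.19. With the total gene signal, miR-455-5p was 0.25 and miR-351-3p 0.066. In slide 1 alone, miR-31a-5p was 0.091, miR-1224 0.11, miR-144-3p -0.086, miR-144-5p -0.035 and miR-351-3p 0.038. In slide 3 alone, miR-347 was 0.012, miR-370-3p 0.11, miR-125a-3p 0.26, miR-214-3p -0.025 and miR-351-3p 0.050. miR-144-3p was -0.056 without the slide block or with sex in its place. miR-351-3p was 0.034 with quantile normalization, 0.00670 with a lower floor and 0.044 with slide and sex or slides 1 and 3 only. When single arrays were left out, miR-144-5p ran from -0.018 to 0.10 and miR-351-3p from -0.028 to 0.044. Dim miRNAs near the floor were limited by signal over background.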
